A study of Triticum aestivum with 12 samples.

Results

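Developing grain was compared with flag leaf in BW208, a bread wheat line that served as the wild type (WT), both collected at 20 days after anthesis (DAA). The comparison took 3 grain and 3 leaf libraries out of 12 in the study, and every gene whose counts scaled to library size (CPM), summed over the 6 libraries, were above 1 was tested. This kept 64739 of the 107892 genes in the count table. Of these, 23032 genes had at least 10 counts in all 6 libraries and are called well counted below. They were described apart because many genes had no counts at all in leaf libraries.

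The study sequenced RNA of whole seeds and flag leaves of BW208 and of E82, an RNAi line derived from it that carries hairpins against gliadin genes under endosperm-specific promoters. The plants grew in a greenhouse, and 3 plants of each line gave the biological replicates. BW208 carried no transgene, so the WT libraries stand for untreated plants of a single line at 1 stage. The 3 E82 grain and 3 E82 leaf libraries of the same stage were used only to see where the WT tissue difference departed from the one in E82. For grain, the RNA extraction had an additional first step, so tissue and extraction cannot be told apart. In bulk libraries, fewer cells of a type and less RNA per cell cannot be told apart either.

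During grain filling the flag leaf is the main source of carbon and remobilised nitrogen, and the grain is the sink. Sucrose made in the leaf is loaded into the phloem, unloaded near the endosperm and turned into starch through ADP-glucose, which a committed enzyme makes and a transporter carries into the amyloplast. Amino acids travel the same route and are built into storage proteins, whose genes are switched on by a set of endosperm transcription factors (TFs). Bread wheat is hexaploid, so most genes exist as homeologs on the A, B and D subgenomes. The gene identifiers of the files carry the chromosome, and the gene names used here are those of the study. A read shared by homeologs or tandem copies is divided between them by the pseudoaligner, so values of single copies in such families are uncertain.

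Total counts ranged from 47733020 to 50629732 in the grain libraries and from 27172814 to 41002622 in the leaf libraries. Grain libraries held 60944 to 64874 genes above 0 and leaf libraries 31558 to 45655, without overlap (exact permutation test, two-sided, p = 0.1, the smallest that 3 against 3 libraries allow). Among genes with at least 10 counts in both other WT leaf replicates, leaf replicate 3 had no count for 8733 of 34918 genes (25%), against 2.50% and 6.24% in leaf replicates 1 and 2. The same share was 2.10% to 4.66% in the WT grain libraries and 0.86% to 2.90% in the E82 leaf libraries. The study reports that a smaller part of the reads pseudoaligned in every WT leaf library than in WT grain or E82 leaf. That part was smallest in WT leaf replicate 3. Its share in the leaf zeros was not tested. The tissue labels were set against markers. The 12 grain markers were 2 Glo3, 3 waxy, 2 BT1, 3 TaPBF, BEIIb and TaNAC019-B. They summed to 11070 to 13329 CPM in grain with none at 0. In leaf they summed to 2.30 to 28.4 CPM, with 10, 11 and 10 of them at 0. The 2 copies of GLK1, a TF of chloroplast development known from Arabidopsis and maize, summed to 50.1 to 77.4 CPM in leaf and to 0.574 to 1.81 CPM in grain.

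In the WT, 13799 of the 64739 genes were higher in grain (21.3%) and 5564 were lower (8.59%), by the quasi-likelihood test of edgeR at a Benjamini-Hochberg adjusted p under 0.05. Among the well counted genes the balance was the opposite: 1870 of 23032 were higher in grain (8.12%) and 4387 were lower (19.0%). The remaining 41707 genes gave 11929 higher (28.6%) and 1177 lower (2.82%). The median log2 fold change (log2FC, grain minus leaf) was 0.73 over all tested genes and -0.20 over the well counted ones. Called differences of well counted genes had a median size of 1.81 on the log2 scale when higher in grain and 2.997 when lower. Grain libraries were all above, or all below, the 3 leaf libraries in 36.9% and 13.6% of the tested genes.

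The number of calls fell when a grain library was left out. Without grain replicate 1, 2 or 3 the test called 2627, 2183 and 2709 genes higher, and 2886, 2913 and 3051 lower. Without leaf replicate 1, 2 or 3 it called 16640, 12289 and 13796 higher, and 5017, 4878 and 6795 lower. Among the well counted genes, leaving out a grain library left 475 to 641 higher and 2173 to 2270 lower. In all 6 of these fits, 2010 of the 13799 higher calls (14.6%) and 2416 of the 5564 lower calls (43.4%) were made again. With the replicate number as a block, 2686 genes were called higher and 3032 lower.

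**Figure D1:**
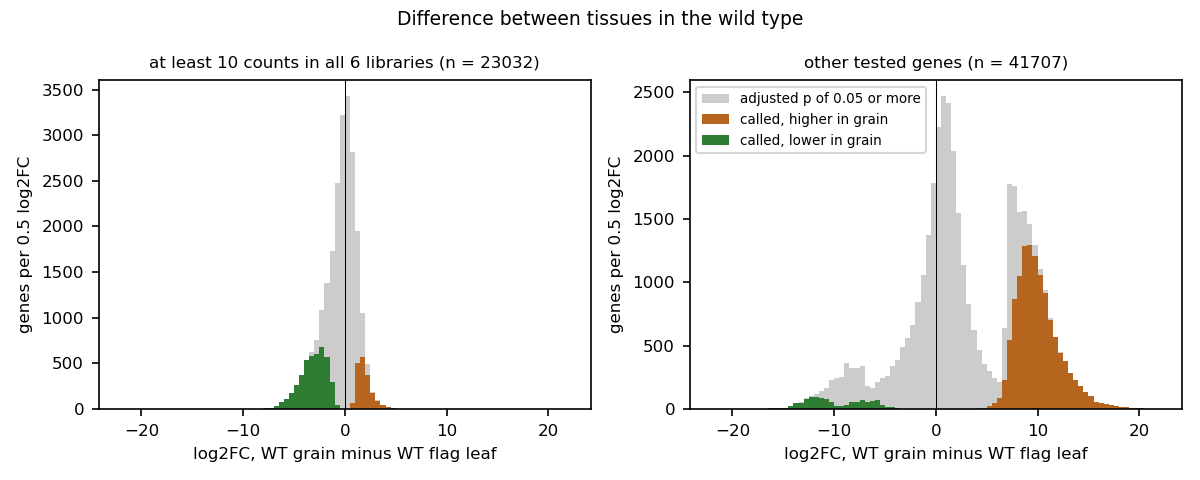
Distribution of the difference between WT grain and WT flag leaf in well counted genes and in the other tested genes (x axis: log2FC, grain minus leaf; y axis: genes per 0.5 log2FC). Grey bars are genes with an adjusted p of 0.05 or more and coloured bars are called genes; among well counted genes 4387 calls lie below 0 and 1870 above, while the other genes give 11929 calls above 0 and 1177 below.

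Most genes called higher in grain had no counts in WT leaf. Of the 13799, 11085 (80.3%) were at 0 in all 3 leaf libraries and 11652 had at most 3 counts in each. In the E82 leaf libraries, 5659 of these 11652 genes (48.6%) also had at most 3 counts in each library, but 2237 (19.2%) had at least 10 counts in all 3. Of the 5564 genes called lower, 640 were at 0 in all 3 grain libraries. A total of 681 had at most 3 counts in each, and only 19 of these had at least 10 counts in all 3 E82 grain libraries. For a gene at this floor in 1 tissue, a lower bound of the fold is given below: the mean CPM of the other tissue over the CPM that 3 counts are worth in the shallowest library (0.103 CPM in leaf, 0.0689 CPM in grain). These bounds cover counting error only, and not the smaller part of reads that pseudoaligned in WT leaf.

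The direction of the calls changed with the level of the gene. Below a mean of 1 CPM, 34.4% of 13504 genes were called higher in WT grain and 0.0963% lower. Between 1 and 10 CPM the shares were 18.4% and 4.02% of 30940 genes, and between 10 and 100 CPM they were 15.6% and 19.97% of 19040 genes. At 100 CPM or more, 39.8% of 1255 genes were higher and 40.1% lower. In the E82 tissues the share called lower below 1 CPM was 9.28%, against 15.6% higher. Genes at low levels can pass the filter on counts in 1 tissue alone, and WT leaf libraries held fewer genes above 0 than WT grain. The part of this in the WT shares below 1 CPM was not tested.

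**Figure D2:**
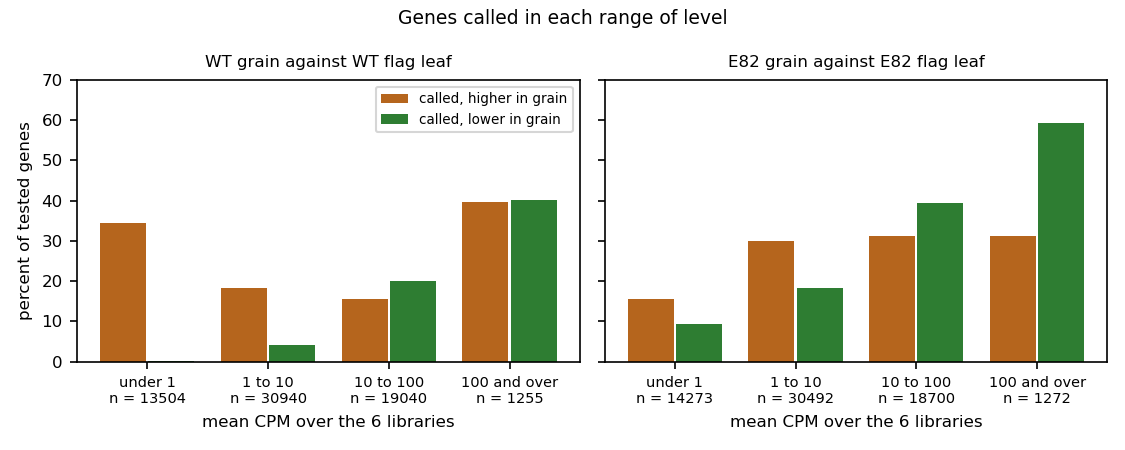
Percent of tested genes called higher (first bar) or lower (second bar) in grain, in 4 ranges of the mean CPM over the 6 libraries of each line (x axis, with the number of genes tested; y axis in percent, from 0). In the WT the lowest range holds 34.4% higher and 0.0963% lower, while the highest range holds 39.8% and 40.1%; in E82 the lowest range holds 15.6% and 9.28%.

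The Glo3 genes made up most of the marker sum above, so the marker check and their values below are the same measurement. The sum does not show that the grain libraries agreed in the other grain markers. For the waxy, BT1, BEIIb and TaPBF genes grain replicate 1 was the highest, with BEIIb at 124, 27.0 and 7.92 CPM. Both Glo3 genes on chromosome 4A, which encode storage globulins of the grain, were called higher, and together they reached 3292 to 4912 length-scaled abundance (TPM) in grain against 0 to 12.2 TPM in leaf. TraesCS4A02G296100 was at 8848, 7022 and 8050 CPM in grain and at 8.70, 0 and 24.9 CPM in leaf. Its log2FC was 9.48 ± 2.22 (approximate SE, n = 3 per tissue), with an adjusted p of 0.026 by edgeR's quasi-likelihood test. The log2FC was 10.84 without leaf replicate 3 and 8.89 without leaf replicate 2. TraesCS4A02G296000 was at 2036, 4724 and 2850 CPM in grain and at 0 in every leaf library, at least 30972-fold higher. The tissues did not overlap for either gene, although the grain libraries differed by more than 2-fold for the second. Without a grain library, or without leaf replicate 1, the first gene was no longer called.

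Starch genes were on the side of the grain, but a single grain library carried much of their level. Of the 39 genes of the 5 starch lists, the study picked 17 for differing between WT and E82 in these libraries and measured 2 more by qPCR. The other 20 were annotated members of a published grain co-expression module, so the lists favour genes expressed in grain and their counts are not independent evidence. Of them, 18 were called higher in grain (5 ADP-glucose pyrophosphorylase, 2 BT1, 5 starch synthase and 6 branching or debranching genes) and none lower, against 21.3% and 8.59% of all tested genes. Grain replicate 1 had the highest grain value in 38 of the 39 (97.4%), with a median of 5.13 times the mean of replicates 2 and 3. Over all tested genes that library was the highest in 30.5% of genes, with a median ratio of 0.931.

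ADP-glucose pyrophosphorylase makes ADP-glucose, the glucosyl donor of starch synthesis. All 6 genes were well counted and 5 were called higher in grain, with a median log2FC of 3.22. The large subunit gene APL3/AGPL1 on 1D (TraesCS1D02G427400) was at 1099, 216 and 132 CPM in grain and at 35.1, 55.4 and 45.6 CPM in leaf. All grain libraries were above all leaf libraries, with a log2FC of 3.41 ± 0.87 and an adjusted p of 0.0316 (edgeR). Its log2FC was 1.98 without grain replicate 1. Its homeolog on 1B (TraesCS1B02G449700) was at 735, 205 and 92.9 CPM in grain and at 32.2, 11.7 and 56.1 CPM in leaf. The tissues were again apart, with a log2FC of 3.37 ± 0.96, or 2.20 without grain replicate 1. The small subunit gene APS1/AGPS1/Bt2 on 7A (TraesCS7A02G287400) was the exception, at 481, 102 and 64.9 CPM in grain against 70.7, 66.5 and 58.8 CPM in leaf. Its tissues overlapped and its adjusted p was 0.145 in edgeR. Of the 6 genes, 2, 0 and 2 were called without grain replicate 1, 2 or 3, and without leaf replicate 1, 2 or 3, 0, 0 and 1.

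BT1, the carrier that brings ADP-glucose into the amyloplast of cereal endosperm, was at 0 in every leaf library for both copies studied. The 6B copy (TraesCS6B02G210000) was at 32.4, 10.2 and 2.39 CPM in grain, at least 144.997-fold higher, or 61.0-fold without grain replicate 1. The 6D copy (TraesCS6D02G168200) was at 19.1, 5.49 and 1.17 CPM, at least 82.9-fold higher, or 32.2-fold without that library. Their adjusted p-values were 0.0199 and 0.0256 (edgeR). The order of the grain libraries was the same for both copies, with replicate 1 the highest. Of the pair, 0, 0 and 1 were called without grain replicate 1, 2 or 3.

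Starch synthases differed by isoform. Granule-bound starch synthase I (GBSSI, waxy), which makes amylose in storage tissue, had 3 copies on the list. The 4A copy (TraesCS4A02G418200) was at 1095, 195 and 73.4 CPM in grain and at 0 in every leaf library, at least 4396-fold higher, or 1299-fold without grain replicate 1. The 7D copy (TraesCS7D02G064300) was at 635, 116 and 39.5 CPM in grain and 0 in leaf, at least 2550-fold higher, or 754-fold without grain replicate 1. The 7A copy (TraesCS7A02G070100) was the only waxy gene with counts in leaf. It was at 352, 59.1 and 28.7 CPM in grain and at 0.651, 2.30 and 3.59 CPM in leaf, with a log2FC of 6.07 ± 1.28, or 4.37 without grain replicate 1, and an adjusted p of 0.0204 (edgeR). All 3 waxy genes were therefore called and apart between tissues.

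SSIIa/SSII-3, which elongates amylopectin chains, was also at 0 in WT leaf in both copies. Its 7B copy (TraesCS7B02G093800) was at 202, 35.8 and 7.41 CPM in grain, at least 790-fold higher, or 209-fold without grain replicate 1. For the 7D copy (TraesCS7D02G190100) the grain values were 128, 27.1 and 6.95 CPM, at least 523-fold higher, or 165-fold without that library. In both copies the grain replicates spread over more than 10-fold. The 3 SSIIIa genes, which make long amylopectin chains, had log2FC of 2.78, 3.80 and 6.97, and none was called, with adjusted p of 0.0979, 0.131 and 0.0516 (edgeR).

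Isoforms that also act in leaves had overlapping levels in the WT tissues. SSI on 7B (TraesCS7B02G018600), which makes short amylopectin chains, was at 195, 63.3 and 46.3 CPM in grain and at 57.7, 70.6 and 76.8 CPM in leaf. The tissues overlapped, with a log2FC of 0.57 ± 0.56 and an adjusted p of 0.523 (edgeR), and without grain replicate 1 the sign turned, to -0.28. A further starch synthase on 7D (TraesCS7D02G117800) had a log2FC of 0.44 ± 0.44, which became -0.10 without grain replicate 1. GBSSII on 2B (TraesCS2B02G390700), the granule-bound form of vegetative tissue, was at 4.41, 3.04 and 4.05 CPM in grain and at 6.21, 13.4 and 2.34 CPM in leaf, with a log2FC of -0.94 ± 0.80. It was the single starch synthase of 12 with a log2FC below 0, and it was not called. In all, 5 of the 12 were called higher, and 4, 0 and 5 without grain replicate 1, 2 or 3.

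Branching enzymes introduce the side chains of amylopectin and debranching enzymes trim them. BEIIb (GBE1/BEIIb/Ae) on 2A (TraesCS2A02G310300), the branching enzyme of cereal endosperm, was at 124, 27.0 and 7.92 CPM in grain and at 0 in WT leaf, at least 511-fold higher, or 169-fold without grain replicate 1. GBE1 on 7B (TraesCS7B02G472500) was at 85.7, 9.01 and 7.76 CPM in grain and at 0 in WT leaf, at least 330-fold higher, or 81.1-fold without grain replicate 1. These zeros were not found in E82 leaf, where GBE1 had 166, 123 and 129 counts and BEIIb had 12, 30 and 51. GBE1 on 7A (TraesCS7A02G549100) had leaf values of 2.47, 5.45 and 6.86 CPM against 284, 26.1 and 23.6 CPM in grain, with a log2FC of 4.50 ± 1.20 and an adjusted p of 0.0352 (edgeR). Its log2FC was 2.38 without grain replicate 1, and it was called in none of the 6 fits with a library left out.

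Among debranching enzymes, isoamylase on 7A (TraesCS7A02G251400) was at 64.1, 21.4 and 15.3 CPM in grain against 4.88, 5.72 and 3.90 CPM in leaf, with a log2FC of 2.80 ± 0.64, or 1.97 without grain replicate 1. Its homeolog on 7B (TraesCS7B02G139700) was at 36.5, 14.8 and 12.5 CPM in grain and at 17.1, 20.5 and 24.6 CPM in leaf. That pair of tissues overlapped, with a log2FC of 0.04 ± 0.49, which turned to -0.56 without grain replicate 1. Pullulanase on 7D (TraesCS7D02G133100) was at 31.7, 3.92 and 11.6 CPM in grain and 0 in leaf, at least 152-fold higher, or 75.1-fold without grain replicate 1. Of the 16 branching and debranching genes, 6 were called higher, and 1, 1 and 2 without grain replicate 1, 2 or 3. None of the 3 alpha-glucan phosphorylase genes on chromosome group 5 was called, with log2FC of 0.50, 1.42 and 1.61. The 5B copy (TraesCS5B02G400000) had a log2FC of -0.91 without grain replicate 1.

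**Figure D3:**
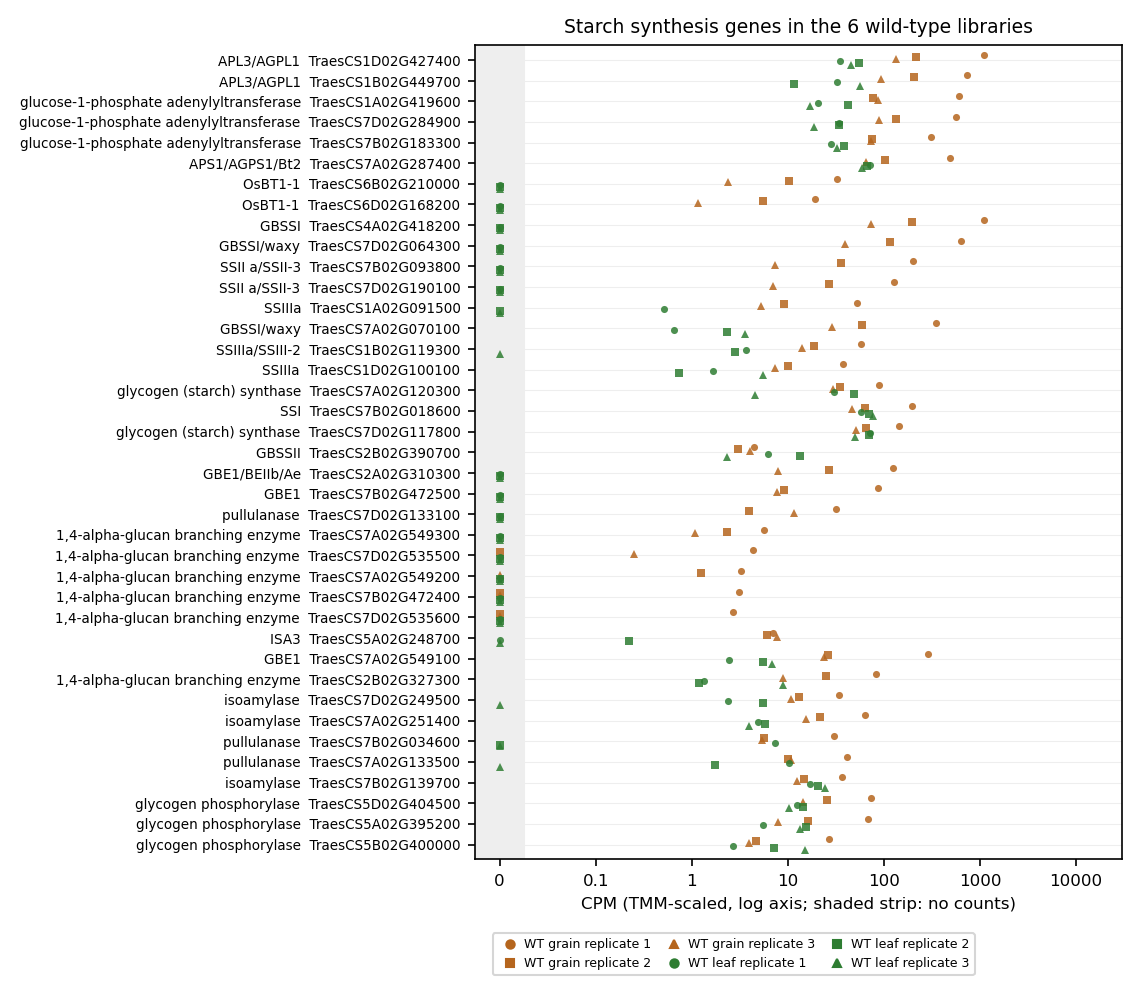
CPM of starch synthesis genes in each WT library (x axis, log scale, with a shaded strip for no counts; one row per gene; symbols mark the replicates and colours the tissues). Grain replicate 1 is the highest grain library in 38 of the 39 genes, and the waxy genes on 4A and 7D have no counts in any leaf library.

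In summed level, the sugar transport genes listed by the study were on the side of the leaf. The 19 genes for sugar transporters and cell wall invertase had a summed level of 15308 to 24041 TPM in leaf and 659 to 1002 TPM in grain, and 5 were called higher and 10 lower in grain, against 21.3% and 8.59% of all tested genes. This list too was assembled by the study from genes that differed between the lines. The paper reports many TaSWEET and SUT genes as lower in E82 leaf than in these WT leaf libraries. The summed level and the counts are therefore no independent evidence of direction. The 7 TaSWEET13 genes on chromosome group 6, encoding SWEET sugar effluxers whose maize relatives export sucrose for phloem loading, were all called lower, with almost no counts in grain. TaSWEET13e-6A (TraesCS6A02G382600) was at 6286, 6290 and 9820 CPM in leaf and at 2.59, 0.879 and 5.21 CPM in grain. The log2FC was -11.33 ± 0.94, or -12.03 without grain replicate 3, with an adjusted p of 0.00161 (edgeR), and the tissues were far apart. TaSWEET13f-6D (TraesCS6D02G367400) was at 4238, 4811 and 7402 CPM in leaf and at 0 in every grain library, at least 79622-fold lower in grain. TaSWEET13g-6B (TraesCS6B02G421800) was at 4268, 3637 and 4756 CPM in leaf and at 0.207, 0.340 and 0.428 CPM in grain, with a log2FC of -13.65 ± 0.49. The copies on 6B and on 6D have neighbouring identifiers, so the division of reads between single copies is uncertain.

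SUT1, the sucrose-proton symporter that loads the phloem in leaves and also serves sucrose uptake in grain, was abundant in both tissues. SUT1D (TraesCS4D02G286500) was at 1231, 932 and 994 CPM in leaf and at 343, 378 and 234 CPM in grain, with a log2FC of -1.73 ± 0.27 and an adjusted p of 0.00892 (edgeR). SUT1C (TraesCS4B02G287800) was at 1220, 982 and 1340 CPM in leaf and at 341, 409 and 370 CPM in grain, with a log2FC of -1.66 ± 0.23. SUT1A (TraesCS4A02G016400) differed least, at 940, 918 and 847 CPM in leaf and 496, 425 and 283 CPM in grain, with a log2FC of -1.17 ± 0.27 and an adjusted p of 0.0253. No homeolog overlapped between tissues. SUT1A was called in 2 of the 6 fits with a library left out, and the other two homeologs in all 6.

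Of the 7 SWEET genes outside TaSWEET13, 3 were called higher in grain and none lower, against 21.3% and 8.59% of all tested genes. TaSWEET15 is related to a rice sucrose transporter of the filling seed. Its 7A copy (TaSWEET15b-7A, TraesCS7A02G147300) was at 86.0, 72.2 and 65.0 CPM in grain and at 4.64, 5.40 and 18.2 CPM in leaf, with a log2FC of 2.98 ± 0.61, or 3.89 without leaf replicate 3, and an adjusted p of 0.0191 (edgeR). The 7D and 7B copies were at 98.0 to 153 CPM and 98.5 to 170 CPM in grain and at no more than 13.4 and 5.11 CPM in leaf. Neither was called, with adjusted p of 0.0999 and 0.0777, although the tissues did not overlap. TaSWEET4 is related to a maize hexose transporter of the seed. TaSWEET4a-6A (TraesCS6A02G218800) was at 207, 307 and 267 CPM in grain and at 40.1, 58.2 and 111 CPM in leaf, with a log2FC of 1.90 ± 0.43. TaSWEET4b-6B (TraesCS6B02G248300) had a log2FC of 0.54 ± 0.29, with overlapping tissues and an adjusted p of 0.225. TaSWEET6b17-7D (TraesCS7D02G160600) was not called either, with a log2FC of 0.82 ± 0.95. TaSWEET1a1-3B (TraesCS3B02G441800), the remaining called gene, was at 13.4, 15.3 and 8.93 CPM in grain and at no more than 0.0542 CPM in leaf, at least 121-fold higher.

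Cell wall invertase (TaCWIN) splits sucrose outside the cell where it leaves the phloem. The 2B gene (TraesCS2B02G311900) was at 158, 89.0 and 119 CPM in grain and at 0 in every leaf library, at least 1180-fold higher. For the 2D gene (TraesCS2D02G293200) grain values were 85.9, 65.4 and 74.4 CPM against 0 in leaf, at least 727-fold higher. Unlike the starch genes, neither was dominated by 1 grain library, and both were called in all 6 fits with a library left out. Across the sugar list, grain replicate 1 was the highest grain library in 5 of 19 genes. Without grain replicate 1, 2 or 3, 2, 2 and 3 of its genes were called higher and 10, 9 and 9 lower.

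Sucrose itself is made in leaves by sucrose phosphate synthase (SPS) and broken down in sinks by sucrose synthase (SUSase). SPS on 4B (TraesCS4B02G091100) was at 153, 115 and 100 CPM in leaf and at 20.6, 25.4 and 30.2 CPM in grain, with a log2FC of -2.27 ± 0.29 and an adjusted p of 0.00451 (edgeR). SUSase on 7B (TraesCS7B02G063400) was at 135, 76.9 and 110 CPM in grain and at 2.98, 14.7 and 13 CPM in leaf, with a log2FC of 3.39 ± 0.65. A second SUSase gene, on 7D (TraesCS7D02G159800), was at 271, 223 and 241 CPM in grain and at 108, 78.3 and 132 CPM in leaf, with a log2FC of 1.21 ± 0.27 and an adjusted p of 0.0231. The tissues were apart for all 3 genes. SPS was called whichever library was left out, and the SUSase genes on 7B and 7D in 4 and 3 of the 6 fits. Of the SUSase genes, 0, 1 and 0 were called without grain replicate 1, 2 or 3.

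**Figure D4:**
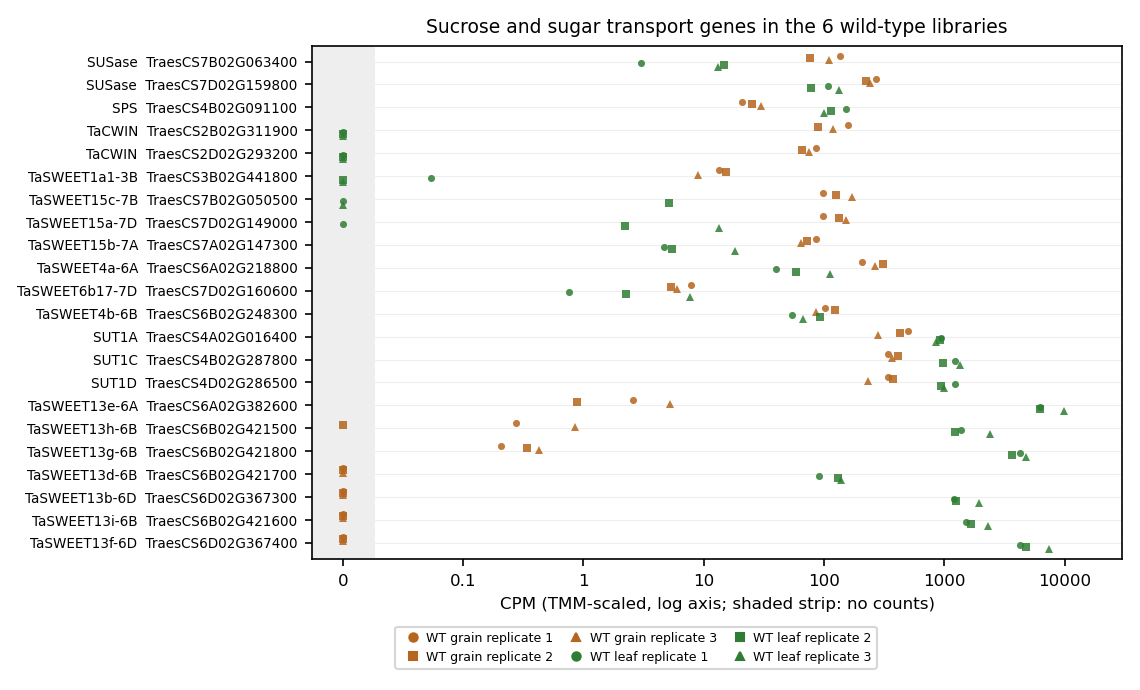
CPM of sugar transporter, invertase and sucrose metabolism genes in each WT library (x axis, log scale, with a shaded strip for no counts; one row per gene; symbols mark replicates and colours the tissues). The TaSWEET13 genes sit at 90.2 CPM or more in every leaf library and at most at 5.21 CPM in grain, and the TaCWIN genes show the reverse, with no counts in leaf.

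Amino acid transporters, which move amino acids across the plasma membrane of source and sink cells, divided between the tissues. The study had chosen the 36 genes because they differed between the lines, so their counts are no independent evidence of direction. Of 35 tested, 11 were called higher in grain and 14 lower, against 21.3% and 8.59% of all tested genes. Their median log2FC was -1.06, with a summed level of 828 to 1131 TPM in leaf against 140 to 232 TPM in grain. The genes on the leaf side were mostly well counted, while 10 of the genes on the grain side were at the floor in leaf. TaProT2-3B (TraesCS3B02G449100), a proline transporter, was at 37.0, 20.8 and 44.5 CPM in leaf and at 0 in every grain library, at least 496-fold lower in grain. Its 3D homeolog (TraesCS3D02G408800) was at 137, 91.7 and 97.1 CPM in leaf and at 0, 0.260 and 0.350 CPM in grain, with a log2FC of -9.02 ± 1.18 and an adjusted p of 0.00495 (edgeR). Both were called in every fit with a library left out.

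On the grain side, the amino acid permease TaAAP22-7A (TraesCS7A02G356639) was at 16.6, 24.8 and 30.4 CPM in grain and at 0 in leaf, at least 232-fold higher. TaAUX2-1B (TraesCS1B02G287300), of the auxin influx carrier family that is grouped with these transporters, was at 9.83, 19.5 and 9.34 CPM in grain and at 0 in leaf, at least 125-fold higher. The other genes called higher in grain were low, at 0.344 to 10.1 CPM except TaAAP12-4A. Picked out after their values were seen, the TaAAP9 homeologs on 3A, 3B and 3D had log2FC of -4.55, -4.35 and -4.70, and TaAAP12-4A (TraesCS4A02G215300) was at 62.4, 43.2 and 48.0 CPM in grain against 27.3, 14.0 and 13.6 CPM in leaf. Calls on the leaf side numbered 12, 10 and 11 without grain replicate 1, 2 or 3, and those on the grain side 2, 1 and 2.

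**Figure D5:**
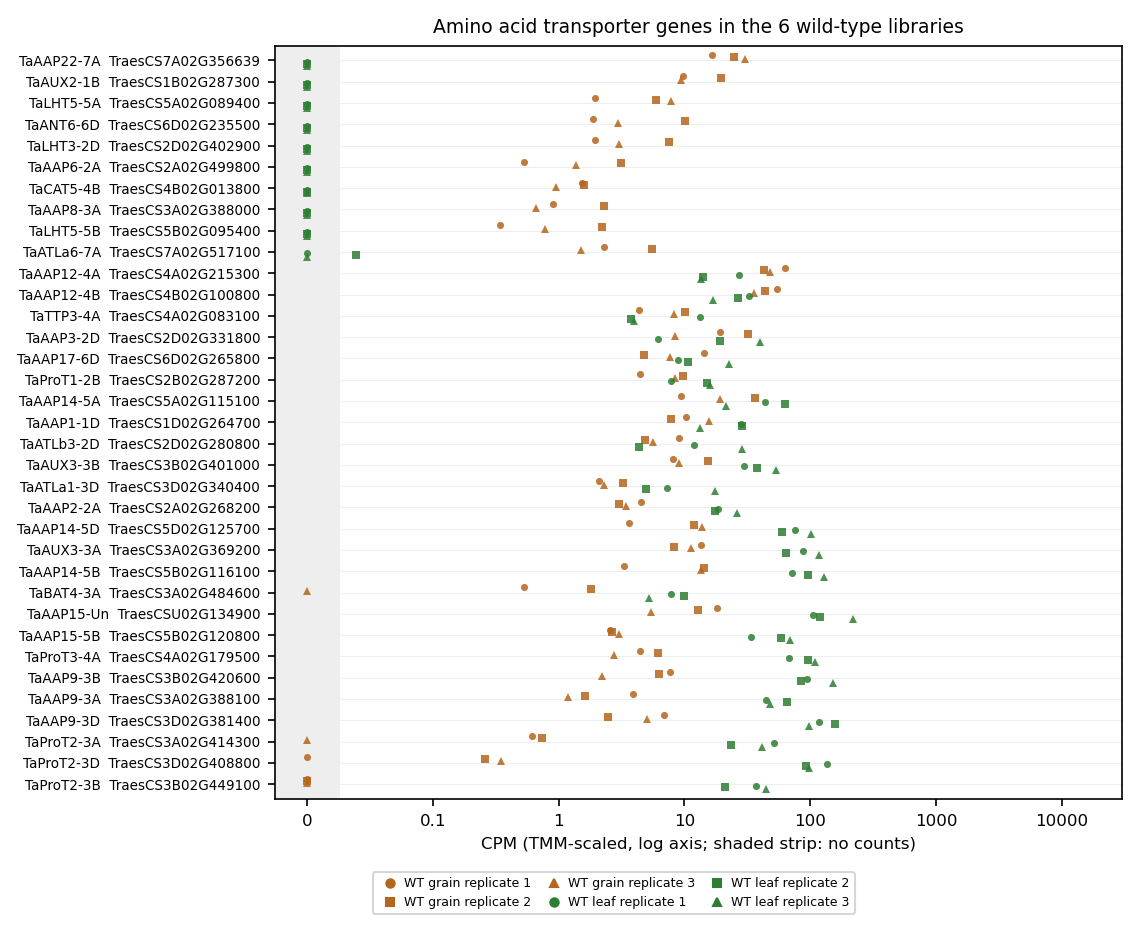
CPM of the amino acid transporter genes in each WT library (x axis, log scale, with a shaded strip for no counts; one row per gene; symbols mark replicates and colours the tissues). TaProT2-3B has 20.8 to 44.5 CPM in leaf and no counts in grain, while TaAAP22-7A has 16.6 to 30.4 CPM in grain and no counts in leaf.

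Papain-like cysteine proteases break down proteins in senescing leaves and germinating grain, and cystatins inhibit them. Of 9 protease genes, 6 were called higher in grain and 2 lower, against 21.3% and 8.59% of all tested genes. The study chose them for differing between WT and E82 leaf, and 5 of them were at the floor in WT leaf. Their counts are therefore no independent evidence of direction. The ortholog of barley HvPap1 (TraesCS5A02G326100) was at 666, 475 and 691 CPM in leaf and at 119, 155 and 97.7 CPM in grain, with a log2FC of -2.30 ± 0.29 and an adjusted p of 0.00439 (edgeR). The ortholog of HvPap14 (TraesCS3A02G348500) was at 40.8, 113 and 49.2 CPM in grain and at 0 in every leaf library, at least 656-fold higher, or 435-fold without grain replicate 2. The library order differed between the 2 genes, and neither overlapped between tissues. A further gene, listed as Psy1-D1 (TraesCS3D02G232500), was at 6.04, 9.89 and 10.8 CPM in grain and 0 in WT leaf, at least 86.2-fold higher. Without grain replicate 1, 2 or 3, 2 protease genes were called higher each time.

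Among the 5 cystatins, 3 were called higher in grain and 1 lower (all tested genes: 21.3% and 8.59%). Icy8 on 2D (TraesCS2D02G128900) was at 168, 152 and 107 CPM in grain and at 12.3, 19.3 and 16.9 CPM in leaf, with a log2FC of 3.14 ± 0.32 and an adjusted p of 0.00234 (edgeR). Icy1-2 on 1D (TraesCS1D02G310300) had the reverse pattern, at 17.8, 21.4 and 15.0 CPM in grain and at 85, 135 and 99.9 CPM in leaf, with a log2FC of -2.56 ± 0.30. Each was called in all 6 fits with a library left out. Without a grain library, 1 cystatin was called in each direction.

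Serine proteases, a broad class of protein-degrading enzymes, gave 16 genes higher and 6 lower in grain of 31, where all tested genes gave 21.3% and 8.59%. TraesCS1A02G187300 was at 90.1, 74.1 and 130 CPM in grain and at 0 in WT leaf, at least 948-fold higher. In the other direction, TraesCS6A02G161600 was at 118, 110 and 237 CPM in leaf and at 0 in grain, at least 2251-fold lower in grain. Both kept their call with any library left out. Leaving out a grain library left 3 or 4 of the 16 higher calls and 4 or 5 of the 6 lower ones in number. The study chose the protease, serine protease and cystatin lists for differing between E82 leaf and the same WT leaf libraries. Of the serine protease genes, 16 were at the floor in WT leaf. The counts of these lists are no independent evidence of direction.

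Transcription factors known to act on storage protein and starch genes were a mixed group. Of the 49 genes, gathered by the study from earlier work, 10 were called higher in grain and 7 lower, against 21.3% and 8.59% of all tested genes. TaPBF, a DOF factor that binds the prolamin box of storage protein promoters, was at 0 in every leaf library in all 3 homeologs. The 5A homeolog (TraesCS5A02G155900), which the study also lists among its candidate TFs, was at 44.2, 12.1 and 5.60 CPM in grain, at least 200-fold higher, or 85.5-fold without grain replicate 1. Those on 5B (TraesCS5B02G154100) and 5D (TraesCS5D02G161000) were at least 206-fold and 218-fold higher, or 76.8-fold and 45.6-fold without grain replicate 1. TaFUSCA3, whose Arabidopsis relative FUS3 governs seed maturation, was called in 2 of its 3 homeologs. On 3A (TraesCS3A02G249100) it was at 20.3, 26.9 and 23.3 CPM in grain and 0 in leaf, at least 227-fold higher. Shown beside it after their values were seen, the 3B copy (TraesCS3B02G278000) was at 13.2, 10.7 and 15.0 CPM in grain and 0 in leaf, and the 3D copy (TraesCS3D02G249100) was not called. The latter was at 16.0, 31.7 and 29.5 CPM in grain and at 0.895, 0 and 0 CPM in leaf, with an adjusted p of 0.051.

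Several bZIP factors of the same list were higher in leaf. TabZIP194.3 (TraesCS7A02G488600) was at 56.6, 45.3 and 17.8 CPM in leaf and at 2.50, 2.0 and 2.33 CPM in grain, with a log2FC of -4.13 ± 0.54 and an adjusted p of 0.00484 (edgeR). TabZIP77.1 (TraesCS3D02G365200) was at 25.7, 34.9 and 25.1 CPM in leaf and at 1.15, 2.20 and 2.08 CPM in grain, with a log2FC of -3.98 ± 0.46. Both were apart between tissues. Without grain replicate 1, 2 or 3, 2, 2 and 4 genes of the list were called higher and 4, 3 and 3 lower.

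The 30 candidate TFs of the regulatory network built by the study were all called, 25 higher and 5 lower in grain (all tested genes: 21.3% and 8.59%). They had been selected for differing between WT and E82 grain, so they had to be expressed in grain of at least 1 line, and their count is no independent evidence of direction. The 25 higher genes were at the floor in all leaf libraries. AT2G38090, a MYB-related factor named by its Arabidopsis ortholog, was on 1A (TraesCS1A02G275800) at 165, 98.0 and 28.8 CPM in grain, at least 939-fold higher, or 613-fold without grain replicate 1. NF-YC2 on 7A (TraesCS7A02G336700), a subunit of the CCAAT-binding NF-Y complex, was at 200, 48.9 and 17.0 CPM in grain, at least 857-fold higher, or 319-fold without grain replicate 1. That library was the highest grain library in 25 of the 30 genes, with a median of 5.63 times the mean of the other two.

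The 5 candidate TFs on the leaf side included another NF-Y subunit gene and both copies of GLK1. NF-YC4 on 4D (TraesCS4D02G223400) was at 115, 159 and 87.3 CPM in leaf and at 0 in grain, at least 1746-fold lower in grain. GLK1 on 7D (TraesCS7D02G347500) was at 26.5, 51.5 and 33.4 CPM in leaf and at 0 in grain, at least 539-fold lower in grain. All 5 were called again whichever library was left out. Of the 25 on the grain side, 8, 2 and 17 were called without grain replicate 1, 2 or 3.

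Further lists came from the same published grain co-expression module, which the study examined because it holds TaPBF-A. None of 13 amino acid biosynthesis genes, of 12 tested aminoacyl-tRNA ligase genes or of 5 CCR4-NOT genes, which act in mRNA decay, was called. Their median log2FC were 0.29, 1.0 and 0.53, against 0.73 over all tested genes, of which 21.3% were called higher and 8.59% lower. The summed levels of the amino acid biosynthesis genes overlapped, at 160 to 204 TPM in grain and 157.2 to 226 TPM in leaf. Grain replicate 1 was the highest grain library in 9 of the 13, 8 of the 12 and 4 of the 5 genes. Without leaf replicate 3, 5 of the ligase genes were called higher in grain. Of 13 genes annotated with gene silencing by RNA, 4 were called higher and none lower, beside 21.3% and 8.59% of all tested genes, and none was called without any 1 of the grain libraries. Among transaminases, TraesCS3A02G305400 was at 287, 190 and 195 CPM in grain and at 17.9, 9.34 and 22.2 CPM in leaf, with a log2FC of 3.76 ± 0.42 and an adjusted p of 0.00317 (edgeR).

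Some of the most abundant called genes had identifiers that the files do not pair with names, and 2 per direction are given. TraesCS1D02G034800 was at 4272, 4120 and 7796 CPM in grain and at 30.0, 30.5 and 4.65 CPM in leaf, with a log2FC of 7.96 ± 0.94 and an adjusted p of 0.00361 (edgeR), and its mean level in grain was 8116 TPM. TraesCS6D02G000200 was at 8739, 795 and 484 CPM in grain and at 0 in leaf, at least 32287-fold higher, or 6186-fold without grain replicate 1. The first was highest in grain replicate 3, and the second followed the pattern of the starch genes. In leaf, TraesCS4D02G135000 was at 5548, 4333 and 4355 CPM against 29.8, 55.8 and 27.3 CPM in grain, with a log2FC of -6.98 ± 0.44. TraesCS6A02G382400 was at 6256, 5550 and 10386 CPM in leaf and at 0, 0 and 0.973 CPM in grain, with a log2FC of -14.45 ± 2.32. This fitted value rested on the counts of grain replicate 3 and was -21.16 without that library, where no grain count remained.

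The same contrast in E82, from 6 libraries that share none with the WT comparison, called 17593 of 64737 genes higher in grain (27.2%) and 15025 lower (23.2%). Scaled by library totals alone, the split in E82 was 24709 to 10885. Of the WT calls, 8483 higher genes (61.5% of the WT list and 48.2% of the E82 list) and 5086 lower genes (91.4% and 33.9%) were called the same way in E82. The opposite call was made for 64 and 11 genes. The spread between WT leaf replicates, a biological coefficient of variation of 1.69, was above that of WT grain (0.693), E82 grain (0.759) and E82 leaf (0.484).

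The difference between the tissue effects of the 2 lines was tested as an interaction. Of 70086 genes, 1803 had a higher grain-minus-leaf difference in WT (2.57%) and 253 a lower one (0.361%), and with library totals alone these were 1475 and 520. Among the 22222 genes with at least 10 counts in all 12 libraries, 78 were higher in WT (0.351%) and 0.977% were lower. With the 12 libraries left out one at a time, the 2 counts ran from 487 to 5808 and from 62 to 739. Of the genes described above, SSI on 7B passed this test, with an interaction log2FC of 2.76 and an adjusted p of 0.0395 (edgeR). In E82 its level was 25.4 CPM in grain and 134 CPM in leaf, a log2FC of -2.40. Isoamylase on 7B likewise passed, at 2.55, with 7.67 CPM in E82 grain and 50.4 CPM in E82 leaf. With the replicate number as a block no interaction passed, and these 2 genes had adjusted p of 0.396 and 0.438. For the TaSWEET13, SUT1, SUSase and TaCWIN genes the interaction did not pass, with the lowest adjusted p among SUT1 genes at 0.136.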

How the data were processed

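RNA of grain and flag leaf of 2 wheat lines was depleted of rRNA and sequenced, with 3 plants per line and tissue. According to the submitters' processing notes, the authors used Trimmomatic 0.36 for trimming and kallisto 0.44.0 for pseudoalignment to the transcripts of the IWGSC wheat annotation. The authors deposited estimated counts per gene, not normalized, and the TPM of each transcript in each library. Pseudoalignment divides reads between near-identical copies, so homeologs can trade counts.

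Estimated counts were rounded to whole numbers. Genes with CPM summed over the 6 WT libraries above 1 were fitted with edgeR 4.0.16 in R 4.3.3. The fit used TMM scaling and the quasi-likelihood test with its legacy option, grain minus leaf, without a replicate block. Benjamini-Hochberg adjustment ran over all tested genes, with a threshold of 0.05. CPM are TMM-scaled, and TPM were summed per gene for comparing levels between genes. Values after ± are approximate SE, the absolute log2FC over the square root of the F statistic of the quasi-likelihood test. They are unreliable where a tissue is near 0. Well counted genes had at least 10 counts in all 6 libraries. A gene at the floor had at most 3 counts in each library of a tissue. E82 libraries were fitted in the same way, and the interaction was fitted on all 12. Groups were taken from the sample labels. The fit was also run on simulated counts, where only genes with a mean above 10 CPM were changed. That run cannot speak for genes at 0 in 1 tissue. Total counts of 27172814 to 50629732 per WT library set the counting floors.

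The set of named genes held all members of the storage globulin, starch, sucrose and sugar transport lists. From the other lists it held the 2 called genes with the largest log2FC in each direction. Not every gene of this set is given singly above, and several starch genes, such as ISA3 on 5A, are not. The 10 most abundant called genes per direction and 5 well counted genes per direction with the largest log2FC were also computed, of which 2 per direction are named. The lists follow the study's tables. The genes tested, lists and names were chosen with earlier results of these data known. The reference table in use here pairs none of the identifiers with names, so lists that needed descriptions were not used here. The alternatives were other scalings, filters, tests (DESeq2 1.42.0, limma 3.58.1 on TPM with pseudocounts of 1 and 0.1), thinning, a replicate block and leaving out each library. Counting calls by level and calls shared by all fits with a library left out were added after seeing the data.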

Additional observations from a re-analysis of the deposited data

Results flagged for a closer look

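For 10 of the named genes the difference between tissues in WT departed from that in E82 by the interaction test of edgeR with Benjamini-Hochberg adjustment. The values are log2 differences, WT minus E82, and those with a tissue at 0 depend on the prior count and are no measure of size. With the replicate number as a block none of them passed, with adjusted p of 0.241 to 0.438. The sources do not say whether grain and leaf of the same number came from the same plant.

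GBE1 on 7B (TraesCS7B02G472500) had 12.75 (adjusted p = 0.0103) and BEIIb on 2A (TraesCS2A02G310300) had 13.43 (0.0139), with no counts in WT leaf and counts in all 3 E82 leaf libraries. A serine protease gene on 5B (TraesCS5B02G404600) had 10.11 (0.00597), with 0 counts in each WT leaf library and 67, 204 and 66 in E82 leaf. Another on 1A (TraesCS1A02G187300) had 7.04 (0.0102), with 16, 8 and 22 counts in E82 leaf. Psy1-D1 (TraesCS3D02G232500) had 6.81 (0.0216), with 52, 34 and 15 counts in E82 leaf, and TaSWEET1a1-3B (TraesCS3B02G441800) had 5.66 (0.042), with 12, 28 and 45. In WT leaf, 25% of the genes counted in both other replicates were at 0 in replicate 3, and the part of this in these differences was not tested.

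TaProT2-3B (TraesCS3B02G449100) had -12.71 (0.00597) and TaProT2-3D (TraesCS3D02G408800) had -6.21 (0.00974). In E82 leaf their means were 2.0 and 8.50 CPM, below every WT leaf library, and in E82 grain 0.960 and 1.05 CPM. SSI on 7B (TraesCS7B02G018600) had 2.76 (0.0395) and isoamylase on 7B (TraesCS7B02G139700) had 2.55 (0.0472), with E82 leaf means of 134 and 50.4 CPM above every WT leaf library. Neither was called between the WT tissues. CPM of the 2 lines were scaled apart, so levels compare only roughly between lines.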

How the results depend on the processing

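Leaving out each library in turn gave 2183 to 16640 genes higher and 2886 to 6795 lower in WT grain, 475 to 2413 and 2173 to 4793 among well counted genes, 15077 to 17112 and 12433 to 15116 in E82, and 487 to 5808 and 62 to 739 for the interaction. With the legacy option of the quasi-likelihood fit off, 10463 of all tested genes were higher and 6854 lower in WT grain. Fitting only the well counted genes gave 3524 higher. Among well counted genes the higher calls were also 4005 with DESeq2, 3435 with the spread shared by 12 libraries, 1224 with limma on log2(TPM + 0.1) and 786 against a 2-fold threshold. For the interaction, library totals gave 520 lower, and DESeq2 gave 4482 higher and 1518 lower. The cause of these changes was not tested. With scaling by RLE the median log2FC of all tested genes was 0.88 and with library totals 0.68.

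With the replicate number as a block, 2686 genes were higher and 3032 lower in WT, 760 and 2484 of them well counted. In E82 the block gave 13925 and 12673, and for the interaction 0 and 0, with 5689 genes at an unadjusted p under 0.05. The numbers are not stated to mark a shared plant. Each library was also taken as its deviation from the mean of its tissue, gene by gene. These deviations had correlations of 0.00793, -0.00175 and -0.00522 between same-numbered grain and leaf libraries, so the libraries were not treated as paired. The log2 CPM of the same pairs, without subtracting the means, had correlations of 0.331, 0.356 and 0.339.

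No called gene among those named changed direction. Of uncalled starch genes, the phosphorylase on 5B (TraesCS5B02G400000) had a log2FC of -0.061 and -0.088 by limma with a pseudocount of 1 and 0.1, and -0.91 to 1.26 with a library left out. Under the same settings SSI on 7B (TraesCS7B02G018600) had -0.042, -0.050 and -0.28 to 0.96, and the starch synthase on 7D (TraesCS7D02G117800) had -0.029, -0.032 and -0.10 to 0.76. Isoamylase on 7B (TraesCS7B02G139700) had -0.40, -0.47 and -0.56 to 0.35, with -0.084 by library totals and -0.13 with the replicate block. Their lowest values came without grain replicate 1. Counts of 3 or fewer in a library limit what a zero in WT leaf can show.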
